A study of Mus musculus with 12 samples.

Results

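The genes described are 10 components of the Notch pathway: the receptors Notch1, Notch2 and Notch3, the ligands Jag1, Jag2 and Dll1, the receptor-modifying enzyme Lfng, and the target genes Hes1, Hey1 and Heyl. They were chosen by symbol, as the probe sets whose only listed gene is a member, and each of the 10 has 1 such probe set among the 19938 symbols on the array. Expression was measured on 12 Affymetrix whole-transcript microarrays of epidermal cells sorted from mouse dorsal skin, with 4 groups of 3 arrays. The bulge is the stem cell region of the hair follicle; its clock-positive and clock-negative cells came from Per1-Venus mice 18 to 19 days old, in which a Venus fluorescent reporter follows the clock gene Per1; both groups were gated as bright for alpha6 integrin and positive for CD34, and split by bright or dim Venus, each sample pooling about 20 mice. The gate text of the clock-negative samples repeats the high-Venus gate, so groups follow the sample titles. Basal cells of the interfollicular epidermis (IFE) came from wild-type mice aged 1 year and from mice of that age lacking Bmal1 (gene symbol Arntl) in the epidermis, called KO here, 5 mice to a sample. All cells were untreated; the Cre driver of the knockout is not given in the sources used here, and nothing says whether pools shared mice, so p-values measure only the spread between these arrays.

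Notch signalling passes between touching cells. A Jagged or Delta-like ligand on one cell binds a Notch receptor on its neighbour, the receptor is cut by ADAM proteases and gamma-secretase, and the freed intracellular domain joins the DNA-binding protein RBPJ to switch on Hes and Hey genes, which encode transcriptional repressors. Fringe enzymes such as Lunatic fringe (Lfng) add sugars to the receptor and shift its response towards some ligands. In skin the pathway is known for promoting the differentiation of epidermal cells that leave the basal layer and for maintaining the hair follicle.

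Values are log2 intensities, so a change of 1 is a doubling, and precision is limited by having 3 arrays to a group. The bulge and IFE columns are filled for 34760 and 28853 probe sets and appear to have been normalized separately, so levels are compared only within a set and, for each gene, only with itself. Cd34, a gene of the bulge gate, stood at 9.44 to 9.58 in clock-negative and 10.95 to 10.98 in clock-positive arrays. Itga6, which encodes the alpha6 integrin of that gate, stood at 10.52 to 10.66 and 10.39 to 10.51. In the IFE arrays the basal keratins Krt5 and Krt14 read 13.55 to 13.66 and 13.47 to 13.56. The suprabasal keratins Krt10 and Krt1 were bright there too, at 13.60 to 13.76 and 12.91 to 13.05. These levels therefore do not show how purely basal the cells were. Per1, whose promoter drives the sorted reporter, read 9.72 to 9.81 in clock-positive and 9.19 to 9.36 in clock-negative arrays, a log2 change of 0.51 ± 0.07 (SE, limma adjusted p = 1.95e-04) in the direction of the titles. Arntl has a single probe set and was 0.30 ± 0.12 (SE) higher in the KO on the log2 scale (limma adjusted p = 0.530); whether that probe set lies in the deleted part was not analysed here, so it checks nothing. Nr1d1, a direct target of BMAL1, differed by −3.98 ± 0.12 between KO and wild type (limma adjusted p = 1.08e-05), in the direction of the labels. Per1 differed there by −0.51 ± 0.33 (limma adjusted p = 0.844) and the genotypes overlapped. It read 10.30, 9.19 and 9.02 in KO arrays 1 to 3 and 9.94, 9.68 and 10.42 in wild-type arrays 1 to 3. Between the bulge sorts Nr1d1 changed by 0.08 ± 0.06 (limma adjusted p = 0.298) and the groups overlapped, so there it did not separate the titles. In the bulge set cell type markers moved with the sort. Of 10 bulge markers 9 rose in clock-positive cells, among them the stem cell genes Lhx2 (by 1.06 on the log2 scale) and Lgr5 (by 1.34), with a log2 summed intensity of 14.25 against 13.69 to 13.75. The remaining one, Itga6, changed by −0.15 (limma adjusted p = 0.0766), with every clock-positive array below every clock-negative one. Of 11 markers of the inner root sheath and hair shaft 9 fell and 1 rose (12.04 to 12.05 against 12.24 to 12.27), of 8 suprabasal markers 3 fell, Lor by 1.17 among them, and 1 rose (14.66 to 14.68 against 14.80 to 14.84), and of 6 melanocyte markers 5 fell and 1 rose (10.05 to 10.10 against 10.07 to 10.19). Of the markers of cells outside the epithelium, 7 of 7 T cell markers fell in clock-positive cells (10.41 to 10.45 against 11.39 to 11.57). Of 6 Langerhans and other myeloid markers 5 fell and 1 rose (10.95 to 11.00 against 11.45 to 11.60), and 7 of 8 endothelial markers rose (11.42 to 11.43 against 11.01 to 11.06). Of 6 smooth muscle and pericyte markers 2 rose and 2 fell (10.63 to 10.71 against 10.13 to 10.33). Of 4 dermal fibroblast markers 1 rose and 2 fell, of 4 Schwann cell markers 1 rose and 1 fell, and of 7 interfollicular basal markers 3 rose. Among all genes tested 45.2% rose and 18.3% fell. After cyclic loess, described below, 5 endothelial markers rose, 4 myeloid markers fell and 1 rose, and 3 melanocyte markers fell and 1 rose. On that scale 9 bulge markers rose and 1 fell, and 3 interfollicular basal markers rose and 2 fell. The part of the markers in the values below was not tested, and in sorted bulk samples fewer cells of a type and less RNA per cell cannot be told apart.

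The first comparison sets the Notch genes of bulge cells with bright Venus against those of cells with dim Venus. Lfng, Jag1 and Hey1 were higher in clock-positive cells and stayed so under each of the 4 scalings tried, and Lfng showed the widest gap of the 10 genes. Heyl was lower, by a smaller amount. No receptor passed the test as deposited. Of the 10 genes, all brighter than the filter on dim genes, 4 rose (Lfng, Jag1, Hey1 and Jag2) and 1 fell (Heyl), at an adjusted p under 0.05 in limma. Of all 13956 genes tested 63.5% passed, 45.2% higher and 18.3% lower, so 5 of 10 is a share near or below that background. On the log2 scale both the 10 Notch genes and all genes tested had a median change of 0.15. After cyclic loess, which removes differences that depend on intensity, the median of all genes was 0.04, and 41.1% of genes passed, 25.3% higher and 15.8% lower. There Lfng, Jag1 and Hey1 were higher and Heyl and Notch3 lower, and the median of the 10 was −0.06. After median centring of each array 73.7% of genes passed, 64% higher and 9.71% lower (all-gene median 0.29), and 8 of the 10 Notch genes were higher and 0 lower.

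**Figure D1:**
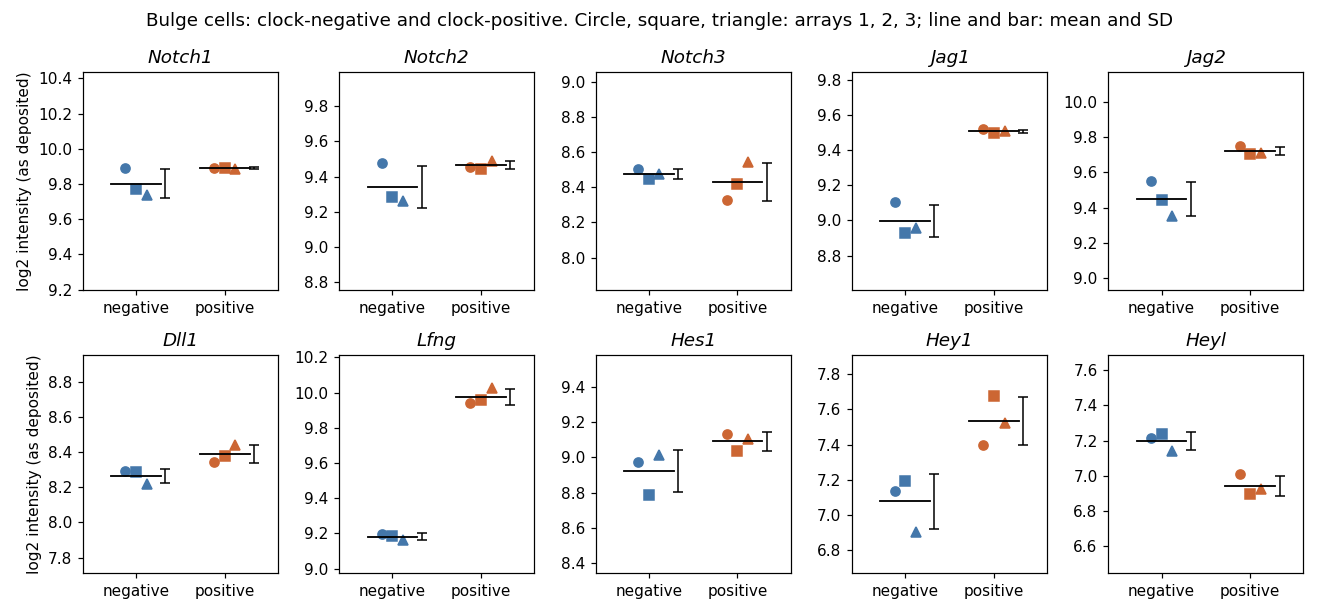
Deposited log2 intensity (y axis, its own range but the same height in each panel) of the 10 Notch genes in the 3 clock-negative and 3 clock-positive bulge arrays, with the group mean as a line and the SD as a bar. The groups stand clear of each other for Lfng, Jag1, Hey1, Jag2, Dll1 and Hes1, with clock-positive higher, and for Heyl, with clock-positive lower; they overlap for the 3 receptors.

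Lfng encodes a fucose-specific N-acetylglucosaminyltransferase that acts on Notch in the Golgi. Its deposited values were 9.94, 9.96 and 10.03 in clock-positive arrays 1 to 3 and 9.20, 9.19 and 9.16 in clock-negative arrays 1 to 3. All clock-positive arrays lay above all clock-negative ones, and the gap was many times the spread within either group. The log2 change was 0.79 ± 0.06 (SE, n = 3 per group, adjusted p = 4.94e-06), a 1.73-fold difference, or 0.65 above the median change of all genes. After cyclic loess it was 0.58 ± 0.06 (adjusted p = 1.28e-04), with values of 9.82 to 9.92 against 9.24 to 9.37.

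Promoter windows from RefSeq (build GRCm38.p6, from 250 bases before to 50 after the gene start) were at hand for 7 of the 10 genes, 8 windows in all. They were searched for the E-box CACGTG, the sequence that BMAL1 with CLOCK binds, which reads the same on both strands, and for the RBPJ core TGGGAA, as TTCCCA on the other strand. The target genes Hes1, Hey1 and Heyl had no window and so were not searched. Among the 7, the Lfng window was the 1 that held either. It held 1 E-box, 112 bases before the start, and 2 RBPJ cores, 135 and 108 bases before it, and the second core shares 2 bases with the E-box. Of all 32851 windows of that length 7.15% hold the E-box and 25.6% the RBPJ core in either direction. The 2 windows are shown because these genes had the smallest adjusted p of the 10 in the bulge comparison. They are chr5:140607091-140607390 on the plus strand for Lfng and chr2:137116471-137116770 on the minus strand for Jag1, written 5′ to 3′ with motif letters in capitals:
Lfng: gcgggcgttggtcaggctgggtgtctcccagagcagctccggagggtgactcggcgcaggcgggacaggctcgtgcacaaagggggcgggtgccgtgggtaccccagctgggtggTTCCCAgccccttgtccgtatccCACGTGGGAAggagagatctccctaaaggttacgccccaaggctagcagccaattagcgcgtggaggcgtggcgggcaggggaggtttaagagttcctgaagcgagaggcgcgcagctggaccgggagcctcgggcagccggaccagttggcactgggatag
Jag1: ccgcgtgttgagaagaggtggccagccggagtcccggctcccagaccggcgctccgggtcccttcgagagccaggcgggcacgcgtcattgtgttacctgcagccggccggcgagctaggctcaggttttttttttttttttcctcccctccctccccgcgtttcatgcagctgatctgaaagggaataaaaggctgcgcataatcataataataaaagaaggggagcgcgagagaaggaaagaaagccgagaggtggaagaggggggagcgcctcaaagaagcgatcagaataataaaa
The Jag1 window has no capitals since it holds neither motif in these 300 bases. A match in letters is not a measured binding site.

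Among the ligands, Jag1 encodes Jagged 1, a membrane ligand of the Serrate type. Its deposited values were 9.52, 9.50 and 9.51 in the clock-positive arrays and 9.10, 8.93 and 8.96 in the clock-negative arrays. The clock-positive arrays were nearly alike and all stood above the clock-negative ones, of which array 1 was the highest. Jag1 rose by 0.51 ± 0.07 on the log2 scale (adjusted p = 1.70e-04), a 1.42-fold difference, and by 0.28 ± 0.05 after cyclic loess (adjusted p = 0.00224). Jag2, the related ligand Jagged 2, read 9.75, 9.70 and 9.71 in clock-positive and 9.55, 9.44 and 9.35 in clock-negative arrays. These groups did not overlap either, and the log2 change was 0.27 ± 0.07 (adjusted p = 0.00592), only 0.13 above the median of all genes. After cyclic loess the groups overlapped and the change was 0.06 ± 0.06 (adjusted p = 0.450), so the Jag2 call depended on the scaling. Dll1, which encodes Delta-like 1, read 8.34, 8.38 and 8.44 against 8.29, 8.28 and 8.22. Its groups did not overlap, yet the log2 change of 0.12 ± 0.06 missed the threshold (adjusted p = 0.102), and it was −0.06 ± 0.05 after cyclic loess.

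The 3 receptors stood close together in the sorts. Notch1, the main receptor of suprabasal keratinocytes, read 9.89, 9.89 and 9.88 in clock-positive and 9.89, 9.77 and 9.74 in clock-negative arrays. Clock-negative array 1 matched the clock-positive arrays, and the log2 change was 0.09 ± 0.06 (adjusted p = 0.249, 95% interval −0.05 to 0.23). Notch2 read 9.46, 9.45 and 9.49 against 9.48, 9.29 and 9.26, again with clock-negative array 1 among the clock-positive values. Its log2 change was 0.12 ± 0.07 (adjusted p = 0.149), and without clock-negative array 1 it was 0.19 and passed (adjusted p = 0.0165). Notch3, a receptor also prominent in pericytes and vascular smooth muscle, read 8.33, 8.42 and 8.54 against 8.50, 8.45 and 8.48. Its groups overlapped as deposited, with a log2 change of −0.05 ± 0.07 (adjusted p = 0.569). After cyclic loess they did not, at 8.22, 8.33 and 8.44 against 8.55, 8.60 and 8.58, and Notch3 was lower in clock-positive cells (−0.24 ± 0.06, adjusted p = 0.0155). The sign of Notch1 and of Notch2 turned after cyclic loess, to −0.12 ± 0.05 (adjusted p = 0.102) and −0.10 ± 0.06 (adjusted p = 0.187).

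The target genes went different ways. Hey1, a basic helix-loop-helix repressor switched on by Notch, read 7.40, 7.67 and 7.52 in clock-positive and 7.14, 7.19 and 6.90 in clock-negative arrays. The groups did not overlap, although each spread more than those of Lfng or Jag1. Hey1 rose by 0.46 ± 0.09 on the log2 scale (adjusted p = 0.00215), a 1.37-fold difference, and by 0.47 ± 0.09 after cyclic loess (adjusted p = 0.00300). Heyl, its relative, read 7.01, 6.90 and 6.93 against 7.21, 7.24 and 7.14. Every clock-positive array lay below every clock-negative one, and Heyl fell by 0.25 ± 0.06 (adjusted p = 0.00638), which is −0.40 relative to the median of all genes. The fall was −0.18 ± 0.06 after cyclic loess (adjusted p = 0.0363) and missed the threshold after quantile normalization (−0.15, adjusted p = 0.0686) and median centring (−0.11, adjusted p = 0.189). Hey1 and Heyl were the dimmest of the 10 genes. The array medians were 6.82 to 6.84 in clock-positive and 6.94 to 7.01 in clock-negative arrays. Hes1, the target most widely used as a readout of Notch activity, read 9.13, 9.03 and 9.10 against 8.97, 8.79 and 9.01. Its groups were apart by a margin smaller than their spread, at 0.17 ± 0.07 (adjusted p = 0.0678), and overlapped after cyclic loess, at −0.06 ± 0.06 (adjusted p = 0.433). In all, the groups did not overlap for 6 of the 10 genes with clock-positive higher and for 1 with it lower, against 50.1% and 19.1% of all genes. After cyclic loess the numbers were 3 higher and 3 lower (Notch1, Notch3 and Heyl), against 32.3% and 21.7%.

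**Figure D2:**
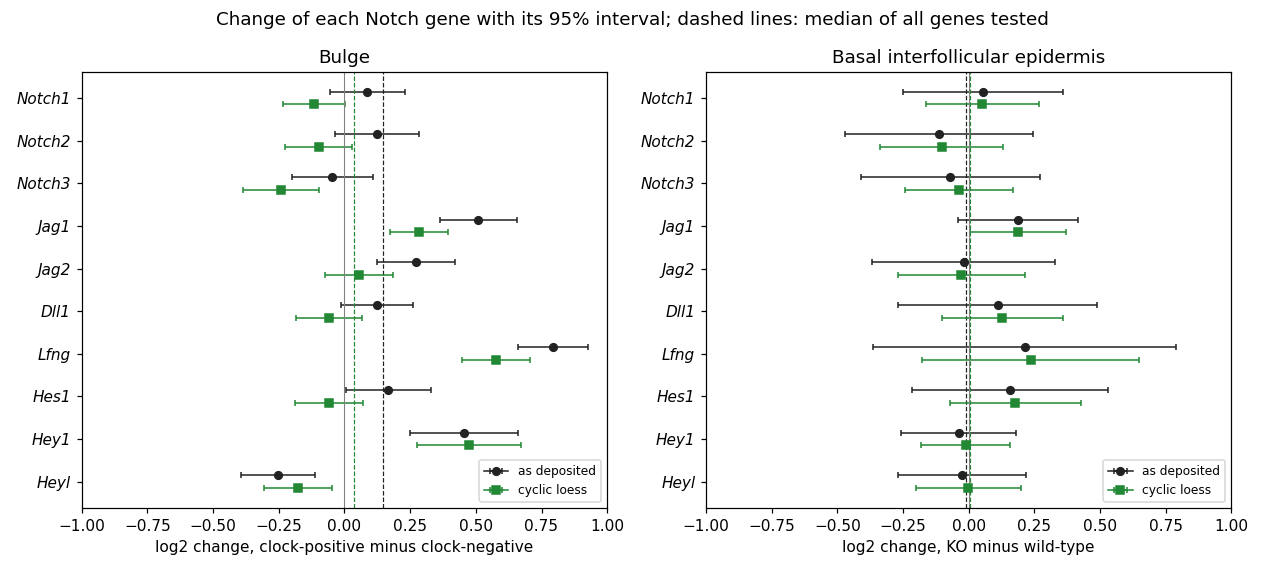
Log2 change (x axis) of each Notch gene with its 95% interval, in bulge (clock-positive minus clock-negative, left) and IFE (KO minus wild type, right), as deposited (black circles) and after cyclic loess (green squares); dashed lines mark the median change of all genes. In the bulge Lfng, Jag1 and Hey1 lie to the right of both dashed lines and Heyl to the left of 0; in the IFE each deposited interval crosses 0.

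The wider pathway list, chosen with earlier results of these data known, held 59 further genes, of which 55 were analysed here and 53 were tested in each comparison (in the bulge without Dll3 and Hey2, which were below the filter). In the bulge 32 of the 53 rose and 3 fell as deposited, against 45.2% and 18.3% of all genes, and after cyclic loess 12 rose and 4 fell, against 25.3% and 15.8%. The median change was 0.21 as deposited and 0.02 after cyclic loess, where all genes had 0.15 and 0.04. Under all 4 scalings 12 rose and 1 fell with the same sign, as did 3 and 0 of the 10 Notch genes; of all genes 22.8% rose and 7.46% fell in this way. Dlk1, a Delta-like protein that lacks the domain for activating Notch, changed most of these, from 7.86, 8.21 and 8.12 in clock-negative to 9.07, 9.01 and 9.07 in clock-positive arrays (log2 change 0.99 ± 0.09, adjusted p = 1.49e-05). Its relative Dlk2 changed by −0.17 ± 0.06 (adjusted p = 0.0314). Dll4, a ligand of endothelial cells, was at −0.13 ± 0.09 (adjusted p = 0.203). Notch4, a receptor known from endothelium, fell by 0.37 ± 0.08 (adjusted p = 0.00342). Of the 8 endothelial markers above 7 rose as deposited, and Cldn5 was at −0.18 (limma adjusted p = 0.0669). Any link between them and Notch4 was not tested.

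The counts by role below are to be read against those shares of all genes. Of the 5 glycosyltransferases 4 rose as deposited (all genes 45.2%): besides Lfng these were Poglut1, which adds glucose to Notch (0.61 ± 0.08, adjusted p = 1.51e-04), Pofut1, which adds the fucose that fringe enzymes extend (0.18 ± 0.06, adjusted p = 0.0251), and the fringe Rfng (0.16 ± 0.06, adjusted p = 0.0448). Lfng and Poglut1 were the 2 called after cyclic loess (all genes 25.3% higher). The remaining fringe, Mfng, was at −0.09 ± 0.06 (adjusted p = 0.197). After cyclic loess Rfng was at −0.066 (adjusted p = 0.309), its sign turned, so that of the fringe genes Lfng alone was called on both scales.

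Of 9 genes for receptor cleavage 5 rose as deposited and 2 after cyclic loess, near the shares of all genes (45.2% and 25.3%). The 2 were Furin, which cuts the Notch precursor (0.58 ± 0.06, adjusted p = 4.07e-05, and 0.37 after cyclic loess), and Ncstn, a gamma-secretase subunit (0.46 ± 0.06, adjusted p = 2.10e-04, and 0.27). Aph1a, another subunit, rose by 0.31 ± 0.07 as deposited (adjusted p = 0.00241). Adam10, the protease of the activating cut, was at 0.14 ± 0.10 (adjusted p = 0.232). Of 13 genes of ligand uptake and receptor turnover 7 rose, and 3 after cyclic loess, again near those shares. The deltex family gene Dtx3 rose by 0.78 ± 0.07 (adjusted p = 1.21e-05), Numbl, a relative of the Notch inhibitor Numb, by 0.68 ± 0.07 (adjusted p = 3.69e-05), and Neurl1b, of the neuralized family of ligand ubiquitin ligases, by 0.35 ± 0.07 (adjusted p = 0.00149); the last was not called after cyclic loess (0.15, adjusted p = 0.0723).

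In the nuclear complex 9 of 9 genes rose as deposited, against 45.2% of all genes, and 2 after cyclic loess, against 25.3%. Rbpj rose by 0.33 ± 0.06 (adjusted p = 0.00149) and was at 0.10 after cyclic loess (adjusted p = 0.121). The coactivator Maml1 rose by 0.32 ± 0.07 (adjusted p = 0.00365) and the acetyltransferase Kat2b by 0.43 ± 0.07 (adjusted p = 7.61e-04), and these were the 2 that remained called. Of 9 corepressor genes 6 rose as deposited (all genes 45.2%), among them the Groucho relatives Tle1 (0.60 ± 0.06, adjusted p = 3.03e-05), Tle2 (0.44 ± 0.06, adjusted p = 2.48e-04) and Tle4 (0.37 ± 0.08, adjusted p = 0.00236). After cyclic loess those 3 rose and Tle3 fell, against 25.3% higher and 15.8% lower of all genes. Among the targets outside the 10 genes, Nrarp, a feedback inhibitor of Notch, rose by 0.24 ± 0.07 as deposited (adjusted p = 0.0146) and was at 0.02 after cyclic loess. Hes5 fell by 0.23 ± 0.08 (adjusted p = 0.0275), with 1 clock-positive array (7.85) above the lowest clock-negative array (7.84). Hey2 stayed below the filter, at 5.04 to 5.23 against 5.16 to 5.31.

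**Figure D3:**
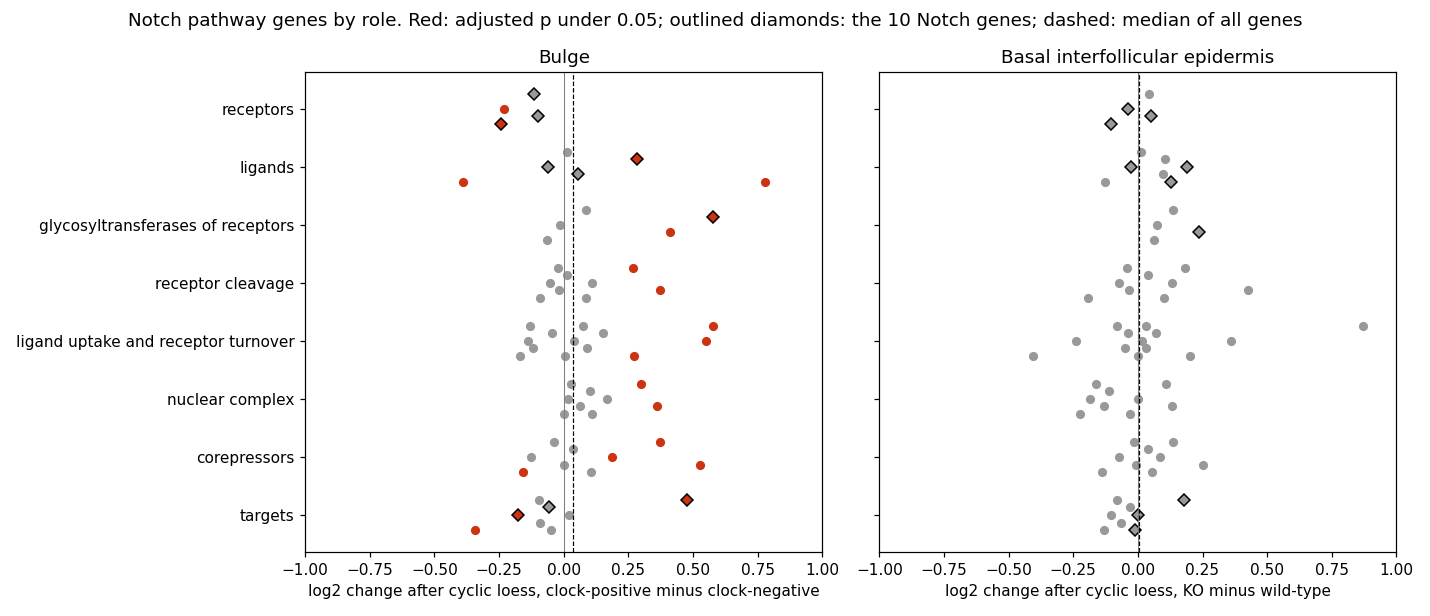
Log2 change after cyclic loess (x axis) of the tested Notch pathway genes, by role (rows), in bulge (left) and IFE (right); red points have an adjusted p under 0.05, outlined diamonds are the 10 Notch genes, and the dashed line is the median of all genes. Red points lie on the left for the receptors, on the right for the glycosyltransferases, receptor cleavage, turnover and the nuclear complex, and on both sides for ligands, corepressors and targets in the bulge; the IFE panel has 0 red points.

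The second comparison sets Notch genes of basal IFE cells without Bmal1 against those of wild-type cells. None of the 10 genes passed the test: limma called 0 of 10 at an adjusted p under 0.05, both as deposited and after cyclic loess, and 0 and 1 (Jag1) of 10 had an unadjusted p under 0.05. Few genes of any kind passed here, 0.193% of the 13956 tested as deposited and 0.609% after cyclic loess. In simulated data 100 genes were changed by 0.4 on the log2 scale and 100 by 1, far fewer than passed in the bulge. The rates belong to that setting. A log2 change of 0.4 was called there for 4% of changed genes in the IFE, against 65% in the bulge. A gene not called here may therefore still have changed by such an amount. The median change of the 10 genes was 0.02 on the log2 scale, against −0.01 for all genes. Except for Jag1 and Hey1, the SD within each genotype was larger than that within either sort of the bulge.

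**Figure D4:**
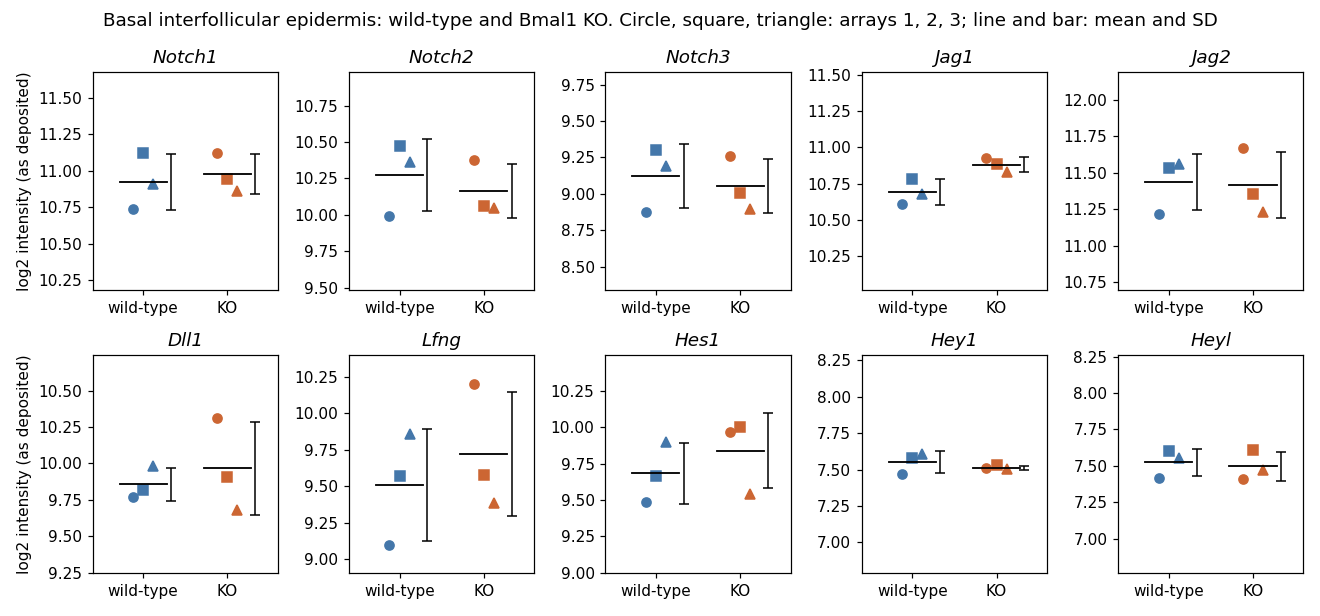
Deposited log2 intensity (y axis, its own range but the same height in each panel) of the 10 Notch genes in the 3 wild-type and 3 KO arrays of IFE cells, with mean (line) and SD (bar). Jag1 is the 1 gene whose groups do not overlap; wild-type array 1 (circle) is the lowest of the 6 arrays for 8 of the 10 genes.

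Jag1 read 10.93, 10.89 and 10.83 in KO arrays 1 to 3 and 10.61, 10.78 and 10.68 in wild-type arrays 1 to 3. It was the 1 Notch gene of which all KO arrays lay above all wild-type ones, as 4.11% of all genes did (9.94% after cyclic loess, where it held too). The log2 change was 0.19 ± 0.10 (adjusted p = 0.742, 95% interval −0.04 to 0.42), and 0.19 ± 0.08 after cyclic loess (adjusted p = 0.362). Jag2 read 11.67, 11.35 and 11.23 in the KO and 11.22, 11.53 and 11.56 in wild type. The arrays of the genotypes were mixed, and the log2 change was −0.02 ± 0.15 (adjusted p = 0.996). Dll1 read 10.31, 9.91 and 9.68 against 9.77, 9.81 and 9.98, with KO arrays at both ends of the range, and changed by 0.11 ± 0.16 (adjusted p = 0.966).

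Lfng, the gene with the widest gap in the bulge, read 10.20, 9.58 and 9.38 in the KO and 9.10, 9.57 and 9.86 in wild type. KO array 1 and wild-type array 1 were the extremes, and the others were interleaved. The log2 change was 0.21 ± 0.25 (adjusted p = 0.942, 95% interval −0.36 to 0.79), and without KO array 1 it was −0.03.

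Among the receptors, Notch1 read 11.12, 10.95 and 10.86 in the KO and 10.73, 11.12 and 10.91 in wild type, and changed by 0.05 ± 0.13 (adjusted p = 0.981). Notch2 read 10.38, 10.06 and 10.05 against 10.00, 10.47 and 10.36, with a change of −0.11 ± 0.16 (adjusted p = 0.959). Notch3 read 9.26, 9.00 and 8.89 against 8.88, 9.30 and 9.19, with a change of −0.07 ± 0.15 (adjusted p = 0.979). For each receptor the lowest array was wild type 1, while the other 2 wild-type arrays lay within or above the KO values. Among the targets, Hes1 read 9.97, 10.00 and 9.54 in the KO and 9.49, 9.66 and 9.90 in wild type, a log2 change of 0.16 ± 0.16 (adjusted p = 0.932). Hey1 ranged from 7.50 to 7.53 in the KO and from 7.47 to 7.61 in wild type, and Heyl from 7.41 to 7.61 and from 7.42 to 7.60. Both kept to a narrow band in which the genotypes overlapped, with changes of −0.04 ± 0.10 and −0.03 ± 0.11. All their values lay below the medians of the IFE arrays, which were 7.75 to 7.80. At so low a level a narrow band does not show steady expression.

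The spread of the 10 genes in the IFE followed single arrays. Wild-type array 1 held the lowest of the 6 values for 8 of the 10 genes, as it did for 34.7% of all genes, and KO array 1 held the highest for 5, against 40.3%. After cyclic loess wild-type array 1 was still the lowest for 7 of the 10, against 33.3% of all genes. Cell type markers varied among the wild-type arrays too. The log2 summed intensity of the myeloid markers ran from 10.46 to 12.32 in wild type and from 10.09 to 10.40 in the KO, with 0 of 6 called. That of the suprabasal markers ran from 14.80 to 14.94 and from 14.68 to 14.74, with 0 of 8 called: Krt10 read 13.76, 13.76 and 13.69 in wild type, while Lor read 7.83, 9.75 and 9.97. Of the 5 T cell markers tested 1 passed as deposited, Thy1, which was higher in the KO by 1.19 (adjusted p = 0.0155). The others were all lower in the KO, with no overlap of the groups. Cd3g was at −2.66 (adjusted p = 0.0663), at 8.53, 10.25 and 10.32 in wild type. Cd3e was at −1.33, Cd7 at −1.22 and Cd247 at −0.26. After cyclic loess 1 T cell marker was called higher and 1 lower. The part of the cell type markers in the Notch values was not tested.

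Of the 53 further pathway genes tested in the IFE (Mfng and Hey2 were below the filter), 0 passed in limma as deposited or after cyclic loess, with a median change of −0.002 as deposited. The deltex gene Dtx4 stood out by value, at 8.72, 8.67 and 8.16 in the KO and 7.80, 7.54 and 7.71 in wild type, a log2 change of 0.83 ± 0.16 (unadjusted p = 8.92e-04, adjusted p = 0.139, and adjusted p = 0.0577 after cyclic loess). Dtx3 was at −0.44 ± 0.15 (adjusted p = 0.413) and Neurl1b at 0.35 ± 0.14 (adjusted p = 0.541). For receptor cleavage, Furin was at 0.42 ± 0.19 (adjusted p = 0.667), Adam10 at −0.20 ± 0.11 and Adam17, a related protease, at 0.13 ± 0.10. In the nuclear complex the coactivator Ep300 was at −0.22 ± 0.10, its relative Crebbp at −0.17 ± 0.10 and Rbpj at −0.16 ± 0.10. Their adjusted p ran from 0.643 to 0.805. For these 3 genes, named for the smallest p of their role, every KO array lay below every wild-type array, as for 8.56% of all genes. Other pathway genes were without overlap too, such as Adam10 (KO lower) and Neurl1b, Dtx4 and Dlk1 (KO higher, as for 4.11% of all genes). Maml1 was at 0.10 ± 0.13. Poglut1 and Pofut1 were at 0.12 ± 0.14 and 0.04 ± 0.14. The ligand genes Dll3, Dll4 and Dlk1 were at −0.13 ± 0.10, 0.01 ± 0.16 and 0.07 ± 0.09. Of the corepressors, Ctbp1 was at 0.25 ± 0.17, Tle1 at −0.17 ± 0.18 and Hdac1 at 0.09 ± 0.10. Of the targets, Hes5 was at −0.14 ± 0.11 and Nrarp at −0.17 ± 0.16. Notch4 was at 0.03 ± 0.12.

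The last test set the change between the sorts against that between the genotypes in 1 fit of all 12 arrays, as clock-positive minus clock-negative less wild type minus KO. It cannot be told apart from the other ways in which the 2 sets differ (tissue, age, number of mice pooled). Jag1 and Lfng passed, 2 of the 10 genes, against 10.9% of all genes higher and 6.48% lower. The difference was 0.70 ± 0.12 for Jag1 (adjusted p = 0.00170) and 1.01 ± 0.27 for Lfng (adjusted p = 0.0242), and 0.47 ± 0.09 and 0.81 ± 0.20 after cyclic loess (adjusted p = 0.00323 and 0.0144). For Lfng the adjusted p was 0.0527 without clock-positive array 1, 0.0564 without clock-positive array 3, 0.0636 without clock-negative array 2 and 0.0559 without clock-negative array 3. Hey1 differed by 0.42 ± 0.14 and missed the threshold (adjusted p = 0.0526), and passed after cyclic loess (0.46 ± 0.12, adjusted p = 0.0176), where 3 of the 10 were higher against 12.5% of all genes higher and 7.33% lower. Jag1 and Lfng passed under all 4 scalings, as did 8.57% of all genes higher and 2.67% lower. Heyl was at −0.28 ± 0.12 (adjusted p = 0.113), and the other 6 genes lay between −0.12 and 0.32 with adjusted p from 0.209 to 0.969.

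**Figure D5:**
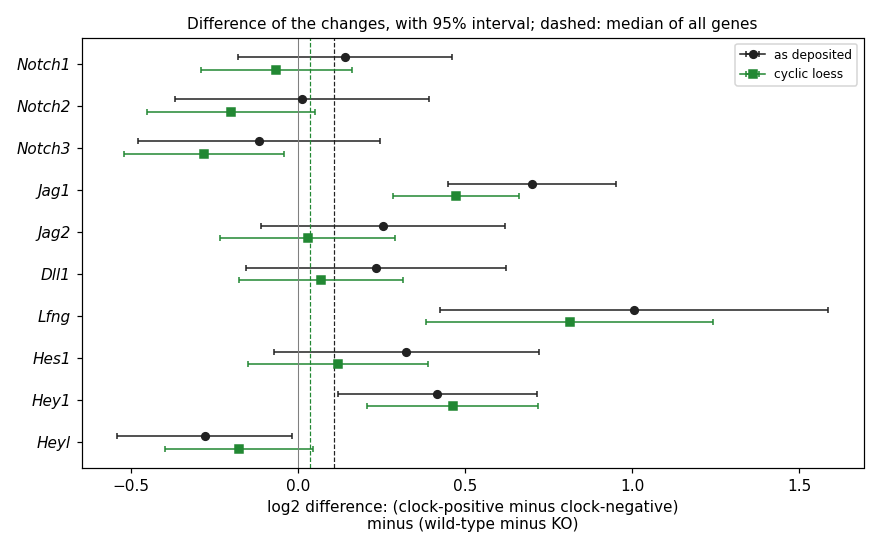
Difference of the changes (x axis, log2: clock-positive minus clock-negative, less wild type minus KO) for each Notch gene with its 95% interval, as deposited (black circles) and after cyclic loess (green squares); dashed lines mark the median of all genes. Jag1, Lfng and Hey1 have intervals above 0 on both scales, with Lfng at 1.01 and 0.81.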

How the data were processed

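The deposited values are log2 intensities of probe sets, which the authors made with RMA, according to the submitters' processing notes; settings are not given in the sources used here. RNA was amplified with a whole transcriptome kit, per the labels' protocols. Probe sets were named with the platform annotation: of 35512, 21789 carry 1 symbol, 1621 several and 12102 none listed, and the Entrez identifiers of 21698 matched RefSeq of GRCm38.p6. For symbols with several probe sets, the one measured on all 12 arrays and then the brightest was used. The 30% of genes with the lowest mean were left out of each comparison. R 4.3.3 and limma 3.58.1 (lmFit, then eBayes with no trend) gave two-sided p-values, adjusted by Benjamini-Hochberg over all 13956 genes, with 0.05 as the threshold. Cyclic loess (3 iterations), quantile normalization and median centring were applied within each set of 6 arrays. Values after ± are standard errors. The scripts were tested on simulated data with the spread of each gene in these arrays. There a log2 change of 0.4 was called for 65% of the changed genes in the bulge and 4% in the IFE. A log2 change of 1 was called for 98% and 78%. Only 100 genes were changed by each amount, and the noise was independent between genes and arrays. The adjustment depends on how many genes change, so these are not the detection rates of the real arrays. The Notch genes and gene lists were chosen with earlier results of these data known. All 10 Notch genes are named; of the other pathway genes, the 3 per role with the smallest p in each comparison and 8 fixed ones are named, and Rfng, Mfng, Dll3, Dlk2 and Tle3 were added after their values were seen. The alternatives were other scalings, filters on dim genes, probe set choice, an intensity trend, all 12 arrays in 1 fit, a replicate block and leaving out each array.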

Additional observations from a re-analysis of the deposited data

Results flagged for a closer look

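The test of the difference itself takes clock-positive minus clock-negative less wild type minus KO. In it the change of 2 Notch genes differed between the bulge sorts and the IFE genotypes. As deposited, 10.9% of all genes passed that test higher and 6.48% lower. The share of Notch genes called is near that background, so the 2 calls do not set the Notch genes apart from all genes. For Jag1 the difference was 0.70 on the log2 scale: it was higher in all 3 clock-positive arrays than in any clock-negative array, and in all 3 KO arrays than in any wild-type array. For Lfng the difference was 1.01: all 3 clock-positive arrays were higher, while the IFE arrays of the genotypes overlapped. The Lfng call held in 8 of the 12 fits that left out 1 array (adjusted p up to 0.0636) and was lost with the replicate number as a block (adjusted p = 0.125). The 2 contrasts are not the same manipulation, and the sets differ in tissue and age.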

How the results depend on the processing

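In the bulge Lfng, Jag1 and Hey1 kept their direction and call under every alternative run, leaving out each array included; Jag2 and Heyl kept theirs without any 1 array but not under every scaling, and Jag2 not with all 12 arrays in the fit (adjusted p = 0.0837). The number of Notch genes called there went from 5 to 8 under median centring, while the share of all genes called went from 63.5% to 73.7%. Against the deposited values, the sign turned after cyclic loess for Notch1 (−0.12), Notch2 (−0.10), Dll1 (−0.060) and Hes1 (−0.059), with the same values when the replicate number was a block; after quantile normalization for Notch1 (−0.060), Notch2 (−0.050), Dll1 (−0.037) and Hes1 (−0.027); and after median centring for Notch3 (0.10). Without 1 array, Notch3 in the bulge ran from −0.10 to 0.0040. In the IFE the ranges were −0.041 to 0.15 for Notch1, −0.19 to 0.018 for Notch3, −0.15 to 0.075 for Jag2, −0.062 to 0.25 for Dll1, −0.028 to 0.39 for Lfng and −0.082 to 0.016 for Heyl, with 0 called in each fit. In the difference of changes the sign turned after cyclic loess, with or without the replicate block, for Notch1 (−0.066) and Notch2 (−0.20), after quantile normalization for Notch1 (−0.013) and Notch2 (−0.18) and after median centring for Notch3 (0.015); without 1 array Notch2 ran from −0.13 to 0.11. The calls there numbered 2 as deposited, and 1 to 4 without 1 array. Over all genes in the bulge 8866 passed, and 5739 after cyclic loess, 5809 after quantile normalization and 5301 with all 12 arrays in the fit. In the IFE 27 passed: 85 after cyclic loess, 49 after quantile normalization, 16 with no filter, 47 with the lowest 50% left out, 407 with all 12 arrays, 57 with an intensity trend, and 7 to 98 without 1 array. In the difference of changes 2422 passed, 1595 with the lowest 50% left out and 1189 to 4208 without 1 array. With the lowest 50% left out, Heyl was not tested in the bulge, nor Hey1 and Heyl in the IFE and in the difference. The cause of these shifts was not tested.

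The replicate number as a block called 5 Notch genes in the bulge plus Hes1 (adjusted p = 0.0417), and 0 in the IFE; in the difference of changes it called 1, as Lfng missed (adjusted p = 0.125). In the bulge with the block 9792 of all 13956 genes had an unadjusted limma p under 0.05, as did 6 of the 10 Notch genes. The share of Notch genes there is thus no higher than that of all genes. Over all genes the block called 3 in the IFE (8 after cyclic loess) and 687 in the difference (1586 after cyclic loess). Same-numbered arrays' deviations from their group means correlated across genes at 0.241, 0.260 and −0.0610 in the bulge and at −0.442, 0.0427 and −0.525 in the IFE. In the bulge arrays 1 and arrays 2 correlated best with their own number and arrays 3 did not. In the IFE no array correlated best with its own number. Whether the numbers pair the bulge arrays is not known.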

Other observations

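Outside the 10 Notch genes, 7 of the 53 other pathway genes passed the test (adjusted p under 0.05 in limma) with a positive difference of changes (clock-positive minus clock-negative, less wild type minus KO) under each of the 4 scalings and 0 with a negative one, against 8.57% and 2.67% of all genes. They were Dlk1, Furin, Poglut1, Neurl1b, Numbl, Dtx4 and Tle2. The log2 difference was 1.06 ± 0.13 for Dlk1 (limma adjusted p = 2.00e-04), 1.00 ± 0.21 for Furin (adjusted p = 0.00726) and 0.73 ± 0.17 for Poglut1 (adjusted p = 0.0109). For Neurl1b and Furin both the clock-positive and the KO mean lay above the mean of its comparison group, by 0.35 in both comparisons for Neurl1b and by 0.58 and 0.42 for Furin (log2; the IFE changes did not pass the test). For Dtx4 the difference, 0.66 ± 0.18 (adjusted p = 0.0276), came with a change of −0.17 ± 0.07 in the bulge (adjusted p = 0.0560) and of 0.83 ± 0.16 in the IFE (adjusted p = 0.139), neither past the threshold.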
